A study of Mus musculus with 9 samples.

Results

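The comparison described here is the loss of Smad4 from the epithelium of mouse jejunal crypts, the proliferative pits of the middle small intestine. It was defined by its libraries: 3 Smad4 knockout (KO) libraries against 3 control libraries, 6 of the 9 RNA-seq libraries of the study, and by the genes measured in them, 11849 of the 23951 in the deposited table, which are those with a mean of at least 1 FPKM (fragments scaled by transcript length and library size) over the 6. The KO mice were Smad4f/f;Villin-CreER(T2): both Smad4 alleles are flanked by loxP sites, and the Villin promoter drives a tamoxifen-activated Cre recombinase in the intestinal epithelium, stem cells included, and not in the stroma or blood cells. Tamoxifen was given daily for 4 days, and crypts were taken 1 day after the last dose. The study's design text calls the controls uninjected mice and the sample labels call them vehicle, and neither gives their genotype. Tamoxifen, active Cre and Smad4 loss therefore cannot be told apart in these groups. The remaining 3 libraries come from double mutants that carry Ex3f/+, an allele that stabilises beta-catenin, in addition to Smad4f/f;Villin-CreER(T2), with the same tamoxifen schedule. Crypts were released with EDTA and passed through a filter. The labels do not say whether the 3 libraries of a group are from separate mice, so the p-values measure the spread between these libraries. Every comparison is 3 against 3.

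SMAD4 is the common partner of the receptor-activated SMAD proteins. Bone morphogenetic proteins (BMPs) signal through SMAD1, SMAD5 and SMAD8, and TGF-beta and activins through SMAD2 and SMAD3; both sets need SMAD4 for most of their transcriptional output. In the intestine BMP signals are strongest towards the villus, where they favour differentiation, and are held low by antagonists at the crypt base. The Id genes, which encode inhibitors of basic helix-loop-helix transcription factors, are the best-known direct targets of BMP signalling.

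Smad4 itself was measured first, since it checks the labels. It stood at 46.1, 55.5 and 47.8 FPKM in the controls and at 11.03, 9.96 and 10.8 FPKM in the Smad4 KO libraries. The 3 KO values lay within a narrow band far below every control. Smad4 fell by 2.13 on the log2(FPKM + 1) scale (SE 0.11, limma adjusted p = 0.00664), which left 21.3% of the control mean. Bulk RNA does not tell fewer cells of a type from less RNA per cell, here or for any gene below. The adjusted p passed 0.05 in all alternatives except 2: it was 0.0553 when sex entered the fit and 0.234 with the library number as a replicate block.

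Id3 was the one protein-coding gene other than Smad4 that passed the test. It measured 53.9, 60.2 and 75.7 FPKM in the controls and 9.49, 13.7 and 12.5 FPKM in the Smad4 KO libraries. No KO library came near the lowest control, and the log2 value fell by 2.32 (SE 0.18, limma adjusted p = 0.0444), to 18.8% of the control mean. The call is close to the threshold: the adjusted p was 0.142 without control 1, 0.113 without control 2, 0.0708 without KO 1 and 0.106 without KO 2.

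Genes that passed the limma test at an adjusted p below 0.05 numbered 4 of 11849, or 0.0338% of those tested, with 1 higher (0.00844%) and 3 lower (0.0253%). At an unadjusted p below 0.05 there were 2264 genes (19.1%), with 1157 higher (9.76%) and 1107 lower (9.34%). Since so few genes passed, the groups of genes below are described by position: how many members had all 3 KO libraries above all 3 controls, or all 3 below. Among all genes tested, 1683 (14.2%) lay above the controls in this way and 1440 (12.2%) below, so 26.4% lay outside the control range. The minimum of 1 FPKM is a mean over both groups, so a gene near 0 in one group was tested through the other. A fit of all 9 libraries, which pools the spread of the 3 groups, gave 451 calls for the same contrast (3.81% of 11841 genes). Of these, 272 were higher (2.3%) and 179 lower (1.51%), and the adjusted p of this fit is given beside some of the genes named. The double mutants lay closer together (root-mean-square log2 distance 0.714 to 0.754) than the controls (0.826 to 0.874) or the KO libraries (0.866 to 1.04). The pooled spread can therefore be smaller than that of the 2 groups compared, which lowers the p-values of the 9-library fit. An exact permutation test of any single gene cannot go below p = 0.1 with 3 libraries against 3.

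**Figure D1:**
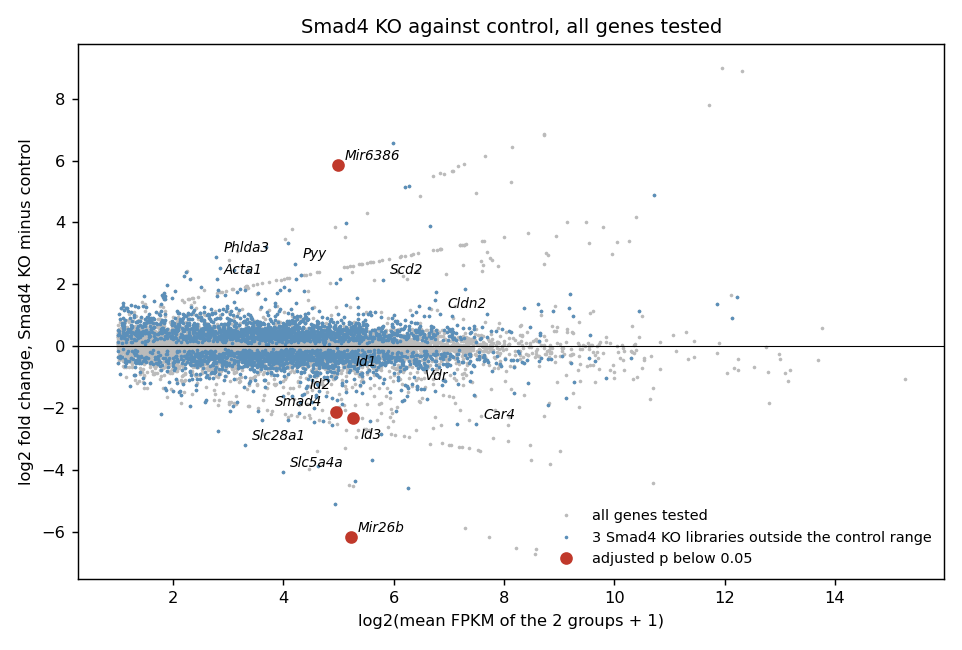
Each point is 1 of the 11849 genes tested, with the log2 of the mean FPKM of the 2 groups plus 1 on the x axis and the log2 fold change, Smad4 KO minus control, on the y axis. Red points are the 4 genes that passed the test (Smad4, Id3, Mir26b and Mir6386) and blue points the genes whose 3 KO libraries all lay outside the control range; the oblique streaks are entries listed at or near 0 in most libraries.

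Some facts of the libraries touch several results. The KO libraries were not alike. On the first principal component (28.8% of the variance) KO 0 stood at -17.9, among the controls (-47.3 to -4.20), and KO 1 and KO 2 at 40.9 and 54.3. On the second (25.5%) KO 0 stood at -71.4 and the other 5 libraries between -2.83 and 36.4. The root-mean-square log2 distance of KO 0 from KO 1 was 1.03 and from KO 2 was 1.04, against 0.866 between KO 1 and KO 2. From controls 0, 1 and 2 the distance of KO 0 was 1.01, 1.04 and 0.966. Transcripts of the X-inactivation gene and of the Y chromosome marked controls 0 and 1 and KO 0 as male and control 2, KO 1 and KO 2 as female. The epithelial identity list (10 genes, among them Epcam, Cdh1 and Vil1) had a median log2 fold change of 0.03 and no member outside the control range. Epcam, the adhesion molecule of all intestinal epithelial cells, was at 685, 833 and 959 FPKM in the controls and 1037, 836 and 722 FPKM in the KO libraries. Each library thus held epithelial RNA. Epcam does not tell crypt from villus or jejunum from other parts of the intestine.

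Promoter stretches of the Id genes are shown because these genes are known targets of BMP signalling. Whether SMAD proteins act within these stretches was not tested, and sequence farther from the start was not searched. The stretches are the 250 bases before the RefSeq start of each gene in the GRCm38.p6 assembly, on the strand of the gene. Capitals mark matches on either strand to GGCGCC, a GC-rich element bound by BMP-activated SMADs, and to CAGAC or its complement GTCTG, the SMAD box, which do not overlap each other here.
Id3, plus strand, chr4:136143572-136143821: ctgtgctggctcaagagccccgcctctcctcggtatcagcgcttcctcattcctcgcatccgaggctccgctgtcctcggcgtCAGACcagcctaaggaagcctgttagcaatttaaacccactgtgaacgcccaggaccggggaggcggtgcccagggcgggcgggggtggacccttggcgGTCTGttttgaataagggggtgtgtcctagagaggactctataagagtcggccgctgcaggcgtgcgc
Id2, minus strand, chr12:25096093-25096342: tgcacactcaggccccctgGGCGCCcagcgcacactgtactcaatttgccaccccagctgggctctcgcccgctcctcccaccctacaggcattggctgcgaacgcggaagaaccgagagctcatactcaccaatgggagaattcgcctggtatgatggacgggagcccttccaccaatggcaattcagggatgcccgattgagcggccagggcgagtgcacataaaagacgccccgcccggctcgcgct
Id4, plus strand, chr13:48260866-48261115: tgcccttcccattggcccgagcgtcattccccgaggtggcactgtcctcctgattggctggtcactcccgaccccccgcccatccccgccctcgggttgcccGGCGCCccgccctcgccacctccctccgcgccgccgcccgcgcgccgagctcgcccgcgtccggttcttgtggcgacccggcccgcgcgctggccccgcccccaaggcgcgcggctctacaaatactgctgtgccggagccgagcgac
In these windows Id3 held 2 SMAD boxes and no GGCGCC, and Id2 and Id4 held 1 GGCGCC each and no SMAD box. Among all 32851 promoters of the same length in the table, 9.59% held GGCGCC and 42.2% held CAGAC on either strand, so a match is common and is only a description. Of the 14 SMAD response genes tested, 9 had a promoter in the table, 2 with GGCGCC and 4 with CAGAC; Id1 had no entry.

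The other Id genes did not all follow Id3. Id2 was at 24.95, 27.9 and 35.3 FPKM in the controls and 11.2, 6.55 and 10.2 FPKM in the KO libraries, a log2 difference of -1.58 (SE 0.22, limma adjusted p = 0.106). Id1 was at 38.1, 45.2 and 53.8 FPKM in the controls and 20.9, 28.6 and 25.9 FPKM in the KO libraries, a log2 difference of -0.83 (SE 0.17, limma adjusted p = 0.124). For both genes every KO library lay below every control, and the 9-library fit gave limma adjusted p = 0.0277 for Id2 and 0.0350 for Id1. Id4, whose product opposes the same transcription factors, lay the other way, at 3.84, 2.41 and 3.18 FPKM in the controls and 6.93, 5.32 and 4.99 FPKM in the KO libraries. Its 3 KO values were all above the controls, with a log2 difference of 0.71 and a limma adjusted p of 0.162.

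**Figure D2:**
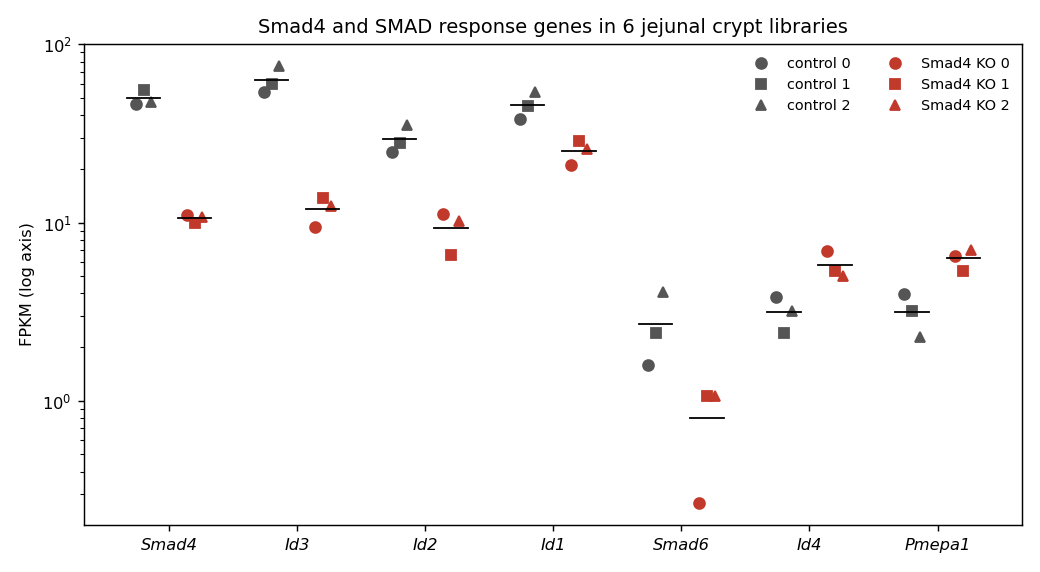
FPKM on a log axis of Smad4, the 4 Id genes, Smad6 and Pmepa1 in the 3 controls (grey) and 3 Smad4 KO libraries (red), with symbols for library numbers and bars for group means. The KO libraries lie below every control for Smad4, Id3, Id2, Id1 and Smad6 and above every control for Id4 and Pmepa1.

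Feedback genes of the pathway were divided as well. Smad6, an inhibitory SMAD that BMP signals induce, was listed at 1.60, 2.39 and 4.09 FPKM in the controls and 0.267, 1.06 and 1.06 FPKM in the KO libraries. Pmepa1, which encodes a TGF-beta-induced membrane protein that blocks SMAD activation, was at 3.96, 3.17 and 2.27 FPKM in the controls and 6.52, 5.38 and 7.05 FPKM in the KO libraries. Thus Smad6 lay below and Pmepa1 above the controls in each KO library, and Pmepa1 reached adjusted p = 0.0381 in the limma fit of 9 libraries. Of the 14 SMAD response genes measured, 4 lay below the controls (Id1, Id2, Id3, Smad6), or 28.6% against 12.2% of all genes. Another 3 lay above (Id4, Skil, Pmepa1), or 21.4% against 14.2%. Of the list 1 was called, Id3, against 0.0338% of all genes. The median log2 fold change of the list was -0.07, and its sign turned to 0.26 without control 0.

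Upstream of SMAD4, 5 of 6 ligands and 4 of 8 receptors overlapped between the groups, while 26.4% of all genes tested did not overlap. Among 6 ligands measured, Gdf15 alone lay outside the control range, at 0.904, 0.283 and 0.295 FPKM in the controls and 15.9, 2.53 and 3.97 FPKM in the KO libraries. The control mean of Gdf15, 0.494 FPKM, was under the minimum of 1 FPKM, so it was tested only through the KO libraries. It encodes a stress-induced member of the TGF-beta family and is also on the list of p53 targets described below. Bmpr1a, the main BMP type I receptor of the epithelium, overlapped, with 26.7, 33.6 and 26.8 FPKM in the controls and 27.3, 29.4 and 24.3 FPKM in the KO libraries. Tgfbr2, the TGF-beta type II receptor, stood above the controls in each KO library, at 10.6, 4.65 and 8.64 FPKM against 2.75, 3.63 and 2.84 FPKM. The log2 difference of Tgfbr2 was 1.08, and its adjusted p in the limma fit of 9 libraries was 0.0555. Acvr1, a type I receptor, also lay above the controls, and the activin receptors Acvr1b and Acvr2a lay below them, with log2 differences of 0.26, -0.31 and -0.34; none of the receptors was called.

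Among the SMAD transducers and their regulators, 6 of 15 lay below the controls (40.0%, against 12.2% of all genes). Another 2 lay above (13.3%, against 14.2%), and none was called. Smad1, a BMP-activated SMAD, was at 28.2, 30.3 and 25.5 FPKM in the controls and 21.1, 20.3 and 19.9 FPKM in the KO libraries. Below the controls with it were Smad3, Smad6, the SMAD-targeting ubiquitin ligase Smurf2, the SMAD anchor Zfyve9 and the SMAD phosphatase Ppm1a; Smurf1 and Skil lay above. Smad2 and Smad5 overlapped. Apart from Smad6, the log2 differences of these 8 genes lay between -0.64 (Zfyve9) and 0.31 (Skil).

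The other 2 called entries were microRNA genes. Mir26b was listed at 82.0, 78.8 and 57.1 FPKM in the controls and at 0 in all 3 KO libraries (limma adjusted p = 0.000235). Mir6386 was listed at 0 in all 3 controls and at 71.7, 32.02 and 80.8 FPKM in the KO libraries (limma adjusted p = 0.0108). With one group at 0 no fold is given. Mir6386 passed the minimum of 1 FPKM only through the KO libraries, and Mir26b only through the controls. The values belong to the annotated hairpin genes, and a poly(A) RNA library is not made to capture the mature microRNAs. Mature sequences from RefSeq (GRCm38.p6) are shown to identify the entries, with the seed, bases 2 to 8, in capitals; the seeds differ, so the 3 belong to different seed groups.
miR-26b-5p: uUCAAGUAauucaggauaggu
miR-26b-3p: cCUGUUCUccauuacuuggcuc
miR-6386: cAUGCCUUagggugggaugcaagu
Mir26b lies inside Ctdsp1, a phosphatase gene, so fragments of host and hairpin cannot be fully separated. Ctdsp1 measured 50.2, 60.0 and 57.0 FPKM in the controls and 36.2, 45.1 and 45.1 FPKM in the KO libraries, lower in each KO library but not called.

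Beyond the called genes, the 12 genes with the largest positive differences included lipid genes and the p53 target Phlda3; they were chosen as genes whose 3 KO libraries lay above the controls, and none passed the adjusted test. Phlda3, which inhibits AKT at the membrane, was at 0.247, 0.244 and 0.563 FPKM in the controls and 24.2, 5.44 and 4.82 FPKM in the KO libraries. KO 0 was far above the other KO libraries. The control mean of Phlda3, 0.351 FPKM, was under the minimum of 1 FPKM, so it was tested only through the KO libraries. Acta1, skeletal muscle alpha-actin, was more even, at 2.09, 1.19 and 1.37 FPKM in the controls and 12.5, 9.18 and 9.31 FPKM in the KO libraries (log2 difference 2.16, SE 0.20, limma adjusted p = 0.0639, and 0.0195 with 9 libraries). Pyy, the hormone peptide YY of enteroendocrine cells, was at 4.32, 1.67 and 6.56 FPKM in the controls and 41.7, 16.7 and 34.8 FPKM in the KO libraries.

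Among lipid genes of this group, Scd2, a stearoyl-CoA desaturase, was at 45.8, 12.99 and 10.6 FPKM in the controls and 87.8, 93.5 and 78.3 FPKM in the KO libraries. The controls varied more than the KO libraries, with control 0 at over 3 times the other controls. Mboat1 and Lpcat4, both acyltransferases that remodel phospholipids, averaged 22.9 and 25.7 FPKM in the KO libraries against 5.76 and 6.62 FPKM in the controls. Lrp8, a lipoprotein receptor, was at 1.09, 0.369 and 0.559 FPKM in the controls and 5.62, 3.33 and 4.57 FPKM in the KO libraries (limma adjusted p = 0.106, and 0.0195 with 9 libraries). Phlda2, R3hdml, Mpp3 and Hspa1b were also among the 12. Lrp8, R3hdml and Mpp3 had control means of 0.672, 0.314 and 0.878 FPKM, under the minimum of 1 FPKM.

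The 12 largest negative differences included Smad4 and Id3 and several genes of absorptive cells. Slc28a1, a sodium-coupled nucleoside transporter, was at 17.2, 19.1 and 13.5 FPKM in the controls and 3.01, 0.262 and 0.312 FPKM in the KO libraries (log2 difference -3.22, limma adjusted p = 0.106, and 0.0228 with 9 libraries). Slc5a4a, of the sodium-glucose cotransporter family, varied within the controls, at 10.2, 18.7 and 59.6 FPKM, and was at 0.858, 0.291 and 0.140 FPKM in the KO libraries. Car4, a membrane-bound carbonic anhydrase, was at 290, 227 and 401 FPKM in the controls and 38.3, 84.7 and 40.7 FPKM in the KO libraries. Slc5a4a and Car4 both had limma adjusted p = 0.0228 in the 9-library fit.

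Tgfbi, named for its induction by TGF-beta and encoding a matrix protein, was at 55.9, 69.9 and 110 FPKM in the controls and 21.4, 10.8 and 10.3 FPKM in the KO libraries (limma adjusted p = 0.106, and 0.0241 with 9 libraries). Akr1c14, an aldo-keto reductase of steroid metabolism, was at 18.4, 16.7 and 23.6 FPKM in the controls and 2.66, 4.81 and 1.71 FPKM in the KO libraries (log2 difference -2.40, SE 0.30, limma adjusted p = 0.102, and 0.0127 with 9 libraries). Arg2 (mitochondrial arginase), Maob (monoamine oxidase B), Maf, AA467197 and Tmsb15b2 were the others. Slc5a4a and Tmsb15b2 had KO means of 0.429 and 0.273 FPKM and passed the minimum of 1 FPKM only through the controls.

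**Figure D3:**
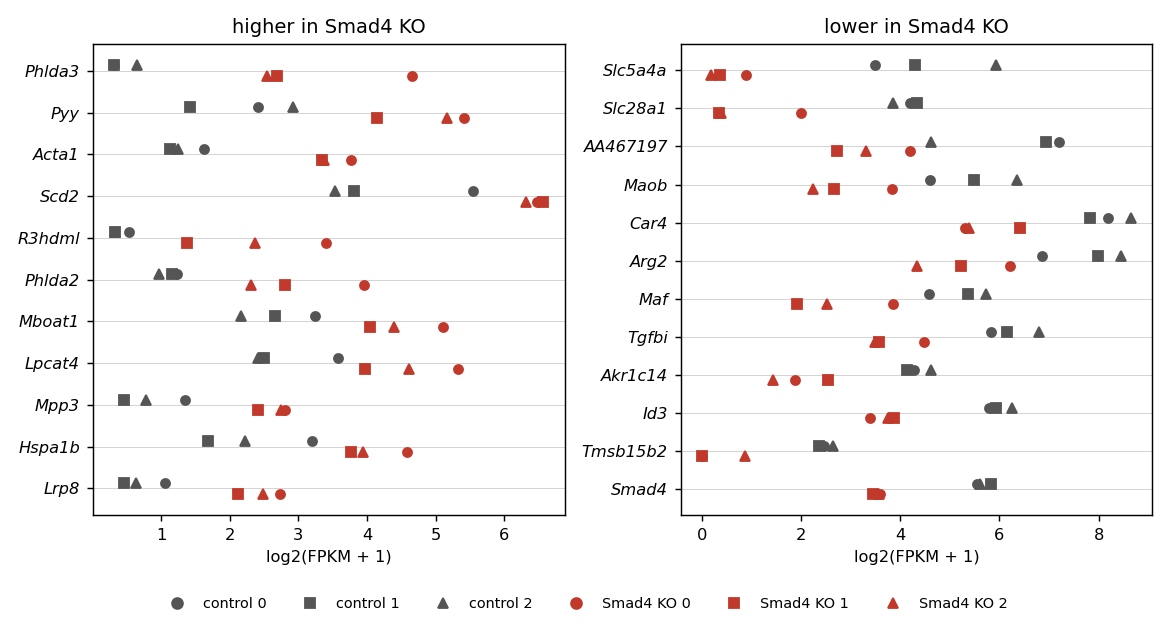
Genes with the largest positive (left, 11 shown) and negative (right, 12 shown) log2 fold changes among those whose 3 Smad4 KO libraries (red) all lay on one side of the 3 controls (grey) and whose unadjusted limma p was below 0.01; the x axis is log2(FPKM + 1). KO 0 is the highest KO library for most genes on the left, and the values of Smad4 and Id3 on the right form narrow, separate groups.

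Genes for making ribosomes gave the most uniform pattern of the lists. All 34 measured genes of ribosome biogenesis and RNA polymerase I had a positive log2 fold change, against 49.6% of all genes, and 25 of them lay above the controls in every KO library, against 14.2% of all genes. The median difference was 0.51 and stayed between 0.40 and 0.60 when any 1 library was left out. None passed the test with 6 libraries, and 12 did in the 9-library fit, against 2.3% of all genes higher there. Gar1, a protein of the RNA-modifying H/ACA particles, was at 30.6, 33.5 and 29.4 FPKM in the controls and 53.2, 59.7 and 55.4 FPKM in the KO libraries. Nle1, a factor for assembly of the large subunit, was at 11.7, 10.6 and 11.4 FPKM in the controls and 19.4, 20.9 and 21.2 FPKM in the KO libraries. In both genes the gap between the groups was wider than the spread within either, and both had adjusted p = 0.0121 in the limma fit of 9 libraries.

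The ribosomal proteins themselves did not show this as a list. Of 79 cytosolic ribosomal protein genes 42 were positive, with a median of 0.04 (-0.05 without control 0). Of the 79, 14 lay above the controls (17.7%, near the 14.2% of all genes). Many of these genes share reads with processed pseudogenes, which makes their levels uncertain. Mitochondrial ribosomal protein genes had 54 of 76 positive, a median of 0.07 (0.03 without KO 1), 19 above and 1 below. Mrpl20, of the large mitochondrial subunit, was at 80.8, 89.4 and 97.6 FPKM in the controls and 140, 120 and 124 FPKM in the KO libraries. Cytosolic aminoacyl-tRNA synthetases were positive in 18 of 20, with a median of 0.24 and 3 above.

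Nucleotide and polyamine synthesis held single genes that were higher in each KO library. Of 27 enzymes of purine and pyrimidine synthesis, 6 lay above the controls (22.2%, against 14.2% of all genes) and 1 below. Their median was 0.26, and 0.07 without KO 1. Shmt2, the mitochondrial serine hydroxymethyltransferase that supplies one-carbon units, was at 33.97, 29.6 and 24.4 FPKM in the controls and 48.3, 68.0 and 67.6 FPKM in the KO libraries. The ribonucleotide reductase subunit Rrm2 was at 21.2, 22.5 and 20.8 FPKM in the controls and 30.97, 33.8 and 35.2 FPKM in the KO libraries. The 2 genes did not overlap between groups, and in the 9-library fit their limma adjusted p was 0.0278 and 0.0272. Of 13 polyamine genes, 6 lay above the controls (46.15%, against 14.2% of all genes) and 3 below (23.1%, against 12.2%). Those above included Odc1, the rate-limiting enzyme of polyamine synthesis, and Srm, spermidine synthase, and those below included Arg2.

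Genes of the cell cycle were less uniform than those of ribosome making. Of 29 DNA replication genes 25 were positive and 8 lay above the controls (27.6%, against 14.2% of all genes), with a median of 0.31 (0.17 without KO 1). Relative to the mean of the controls, the list mean was -0.09 in KO 0, 0.51 in KO 1 and 0.34 in KO 2. Mitosis and spindle genes had no member of 30 outside the control range and a median of 0.16 (0.03 without KO 1). Mki67, a marker of cycling cells, was at 40.8, 59.9 and 36.2 FPKM in the controls and 36.9, 62.7 and 40.9 FPKM in the KO libraries, with the groups fully interleaved. Among 21 G1 regulators, 4 lay above the controls (19.05%) and 2 below (9.52%), near the 14.2% and 12.2% of all genes. The cyclin Ccnd3 was at 15.7, 14.7 and 14.8 FPKM in the controls and 20.99, 21.4 and 22.1 FPKM in the KO libraries. The inhibitor Cdkn1b was at 35.3, 34.04 and 32.4 FPKM against 24.5, 28.2 and 28.3 FPKM. Both groups of 3 were tight and separate. Ccnd3 had a limma adjusted p of 0.0352 in the 9-library fit and Cdkn1b 0.0821. Another inhibitor, Cdkn1c, lay above the controls, with a mean of 2.48 FPKM in the KO libraries against 1.07 FPKM. The cyclins Ccnd1 and Ccnd2 overlapped between the groups.

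Stem cell and Wnt genes mostly overlapped. Of 22 crypt base stem cell markers 1 lay outside the control range, above it (4.55%, against 26.4% of all genes outside). It was Lrig1, a brake on EGF receptor signalling, at 32.8, 35.0 and 28.4 FPKM in the controls and 45.5, 44.3 and 43.6 FPKM in the KO libraries (limma adjusted p = 0.0410 with 9 libraries). Lgr5, the receptor that marks crypt base columnar stem cells, was at 8.43, 6.72 and 6.04 FPKM in the controls and 2.64, 9.32 and 19.1 FPKM in the KO libraries. Its KO values spanned the controls on both sides. Of 17 Wnt targets, 2 lay above the controls, Cd44 and Fzd7 (11.8%, against 14.2% of all genes), and none below. The limma adjusted p in the 9-library fit was 0.0907 for Cd44 and 0.0437 for Fzd7. Axin2, a feedback inhibitor of the pathway, overlapped at 33.2, 33.3 and 22.3 FPKM against 12.5, 22.6 and 29.2 FPKM. Myc overlapped, at 41.8, 42.4 and 24.5 FPKM in the controls and 34.5, 31.4 and 53.9 FPKM in the KO libraries.

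**Figure D4:**
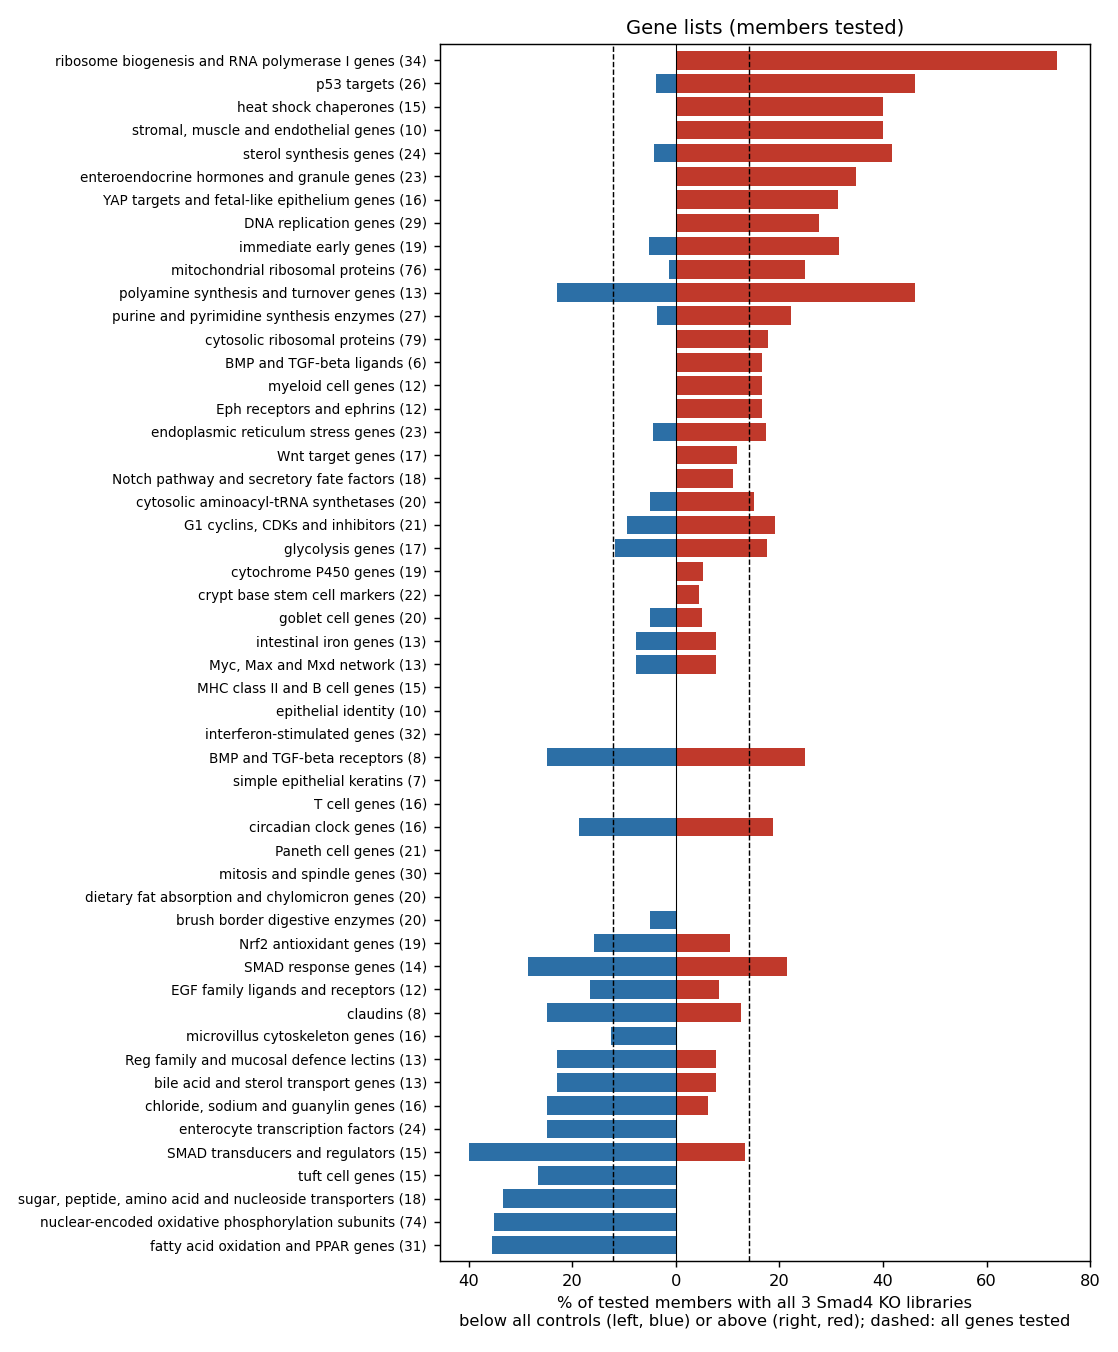
For each gene list (number of members tested in parentheses), the bars give the percent of tested members whose 3 Smad4 KO libraries all lay above the 3 controls (red, right) or all below (blue, left), and dashed lines give the same for all genes tested, 14.2% above and 12.2% below. Ribosome biogenesis stands at the top, and fatty acid oxidation and oxidative phosphorylation at the bottom.

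Mitochondrial energy genes lay on the lower side. Of 74 nuclear-encoded subunits of oxidative phosphorylation 67 were negative and 26 lay below the controls (35.1%, against 12.2% of all genes), with none above and a median of -0.25. The share differed by complex: 12 of 36 subunits of complex I, all 4 of complex II, 2 of 8 of complex III, none of 11 of complex IV and 8 of 15 of complex V, the ATP synthase. Sdhc, a membrane anchor of complex II, was at 265, 323 and 313 FPKM in the controls and 169, 205 and 195 FPKM in the KO libraries. Atp5h, of the ATP synthase stalk, was at 93.1, 110 and 102 FPKM in the controls and 68.3, 79.8 and 71.1 FPKM in the KO libraries. These 2 of 74 subunits (against 1.51% of all genes lower there) passed in the 9-library fit, with limma adjusted p of 0.0420 and 0.0497.

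Genes of fatty acid oxidation and the PPAR receptors lay in the same direction. Of 31 measured, 28 were negative and 11 lay below the controls (35.5%, against 12.2% of all genes), with a median of -0.56 (-0.36 without control 2). Ppargc1a, a coactivator that drives mitochondrial genes, was at 9.20, 12.8 and 15.1 FPKM in the controls and 4.36, 2.13 and 1.46 FPKM in the KO libraries. Ppard, a nuclear receptor for fatty acids, was at 57.6, 64.5 and 68.6 FPKM in the controls and 32.3, 36.0 and 41.2 FPKM in the KO libraries. Neither overlapped between groups, and the 9-library fit gave limma adjusted p of 0.0272 and 0.0263. Ehhadh, a peroxisomal beta-oxidation enzyme, was the third member that passed there, so 3 of 31 did, against 1.51% of all genes lower. Relative to the controls' mean, the list mean was -0.14, -0.60 and -0.78 in KO 0, KO 1 and KO 2 and -0.36 in control 0, so KO 0 lay within the controls.

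Sterol synthesis genes were mostly positive, with none called. Of 24 measured, 19 were positive, 10 lay above the controls (41.7%, against 14.2% of all genes) and 1, Stard4, below. The median was 0.39 (0.60 without control 0). Sqle, squalene epoxidase, was at 42.5, 21.9 and 21.9 FPKM in the controls and 51.4, 46.7 and 55.6 FPKM in the KO libraries. Insig1, a sterol-sensing regulator of the pathway, was at 19.1, 13.7 and 17.6 FPKM in the controls and 31.01, 29.9 and 28.98 FPKM in the KO libraries. In both genes each KO library was above each control, and the limma adjusted p with 9 libraries was 0.102 for Sqle and 0.0731 for Insig1.

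Absorptive genes had negative medians, and the KO libraries differed among themselves. Brush border digestive enzymes were negative in 19 of 20 with a median of -1.39, yet 1 member, Xpnpep2, lay below all controls (5.0%, against 12.2% of all genes). Sis, sucrase-isomaltase, was at 266, 374 and 640 FPKM in the controls and 273, 43.5 and 42.7 FPKM in the KO libraries. KO 0 lay within the controls and the other 2 far below them. The median of the list was -2.26 without KO 0 and -0.76 without KO 1. Genes of dietary fat absorption had 19 of 20 negative, none outside the control range and a median that ran from -1.42 without KO 0 to -0.10 without KO 1.

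Transporters of sugars, peptides, amino acids and nucleosides also had a negative median. All 18 were negative, 6 lay below the controls (33.3%, against 12.2% of all genes), and the median was -1.34 (-1.76 without KO 0). Slc1a1, a glutamate and aspartate transporter, was at 64.7, 47.7 and 56.8 FPKM in the controls and 12.7, 35.8 and 17.2 FPKM in the KO libraries, so that KO 0 was the lowest. Slc1a1 and Slc28a1, 2 of 18, passed in the 9-library fit (limma adjusted p of 0.0497 for Slc1a1), against 1.51% of all genes lower there. Slc9a3, the apical sodium-hydrogen exchanger, was at 32.9, 31.3 and 40.7 FPKM in the controls and 20.96, 3.65 and 5.77 FPKM in the KO libraries. Kcnn4, a potassium channel of crypt secretion, stood the other way, at 29.7, 42.5 and 36.2 FPKM in the controls and 82.8, 73.1 and 57.4 FPKM in the KO libraries (limma adjusted p = 0.0303 with 9 libraries).

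**Figure D5:**
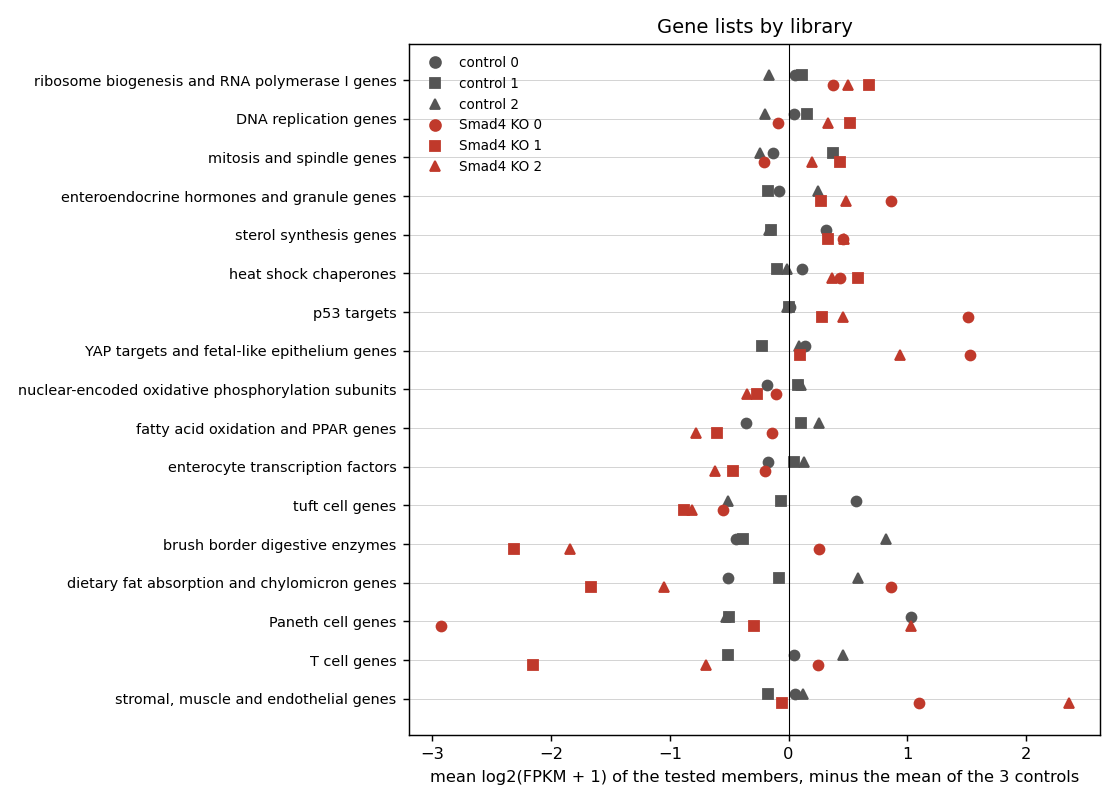
Mean log2(FPKM + 1) of the tested members of 17 lists in each library, minus the mean of the 3 controls; grey symbols are controls and red symbols Smad4 KO libraries. The 3 KO libraries lie together for ribosome biogenesis and sterol synthesis, while KO 0 stands away from KO 1 and KO 2 for p53 targets, brush border enzymes, dietary fat and Paneth cell genes, and KO 2 is the highest for stromal genes.

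Transcription factors of enterocytes were lower in part. Of 24 measured, 6 lay below the controls and none above, with a median of -0.32. Of all genes tested, 12.2% lay below the controls and 14.2% above. Hnf4g, a nuclear receptor of differentiated enterocytes, was at 91.0, 151 and 160 FPKM in the controls and 73.8, 46.5 and 34.1 FPKM in the KO libraries, whereas its relative Hnf4a overlapped at 253, 293 and 231 FPKM against 199, 283 and 188 FPKM. Maf, a leucine zipper factor of mature enterocytes, was at 22.9, 40.0 and 52.3 FPKM against 13.4, 2.75 and 4.77 FPKM. Osr2, a zinc finger factor, was at 40.6, 40.9 and 52.2 FPKM in the controls and 26.4, 29.5 and 27.96 FPKM in the KO libraries. Maf and Osr2, 2 of 24, passed in the 9-library fit (limma adjusted p of 0.0385 and 0.0428), against 1.51% of all genes lower there, and Hnf4g did not (0.0547). Vdr, the vitamin D receptor, was at 91.0, 142 and 132 FPKM in the controls and 52.9, 51.5 and 41.9 FPKM in the KO libraries, and also passed there (0.0288).

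Tight junction claudins differed by gene. Cldn2, which forms a cation pore and is known as a crypt claudin, was at 75.5, 83.4 and 62.8 FPKM in the controls and 147, 141 and 174 FPKM in the KO libraries. Cldn15, another cation pore of the small intestine, was at 287, 344 and 447 FPKM in the controls and 241, 233 and 195 FPKM in the KO libraries. The first lay above and the second below the controls in each KO library, and Cldn2 passed in the 9-library fit (limma adjusted p = 0.0228). Keratins of simple epithelia showed no member of 7 outside the control range.

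Secretory lineages differed from one another. Of 23 enteroendocrine genes 22 were positive and 8 lay above the controls (34.8%, against 14.2% of all genes), with none below and a median of 0.48. Chga, the granule protein chromogranin A, was at 41.0, 33.8 and 53.9 FPKM in the controls and 103, 70.6 and 68.8 FPKM in the KO libraries. Cck, cholecystokinin, was at 14.1, 20.02 and 23.7 FPKM in the controls and 65.7, 27.5 and 34.2 FPKM in the KO libraries. Pyy, Chgb, Gcg, Tac1 and the transcription factors Pax6 and Insm1 were the other 6 above the controls. Pyy was the 1 of 23 that passed with 9 libraries (limma adjusted p = 0.0285), against 2.3% of all genes higher there.

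Tuft cell genes, of the chemosensory cells that respond to parasites, were negative in all 15 measured, with a median of -0.69 (-0.40 without control 0). Of the 15, 4 lay below the controls (26.7%, against 12.2% of all genes). Dclk1, a kinase that marks these cells, was at 14.8, 8.13 and 5.31 FPKM in the controls and 4.796, 4.34 and 2.92 FPKM in the KO libraries. Pou2f3, the factor they require, was at 8.87, 4.34 and 3.11 FPKM against 2.26, 2.36 and 2.67 FPKM. In both genes the lowest control and the highest KO library were close, and control 0 was high. Goblet cell genes were divided, with 12 of 20 positive, 1 above the controls and 1 below (5.0% each way, against 14.2% and 12.2% of all genes). None of 21 Paneth cell genes lay outside the control range, and their list mean, relative to that of the controls, ran from -2.93 in KO 0 to 1.03 in KO 2.

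Targets of p53 lay above the controls in 12 of 26 (46.15%, against 14.2% of all genes) and below in 1, Sesn1 (3.85%, against 12.2%). Their median was 0.63. KO 0 stood apart: its list mean was 1.52 above the controls, against 0.28 in KO 1 and 0.46 in KO 2, and the median without KO 0 was 0.32. Bax, which permeabilises the mitochondrial outer membrane in apoptosis, was at 47.8, 50.5 and 52.7 FPKM in the controls and 187, 75.1 and 91.7 FPKM in the KO libraries. Aen, an apoptosis nuclease, was at 8.09, 9.70 and 7.07 FPKM in the controls and 25.1, 18.3 and 18.4 FPKM in the KO libraries. Gtse1, a p53-binding protein of the G2 phase, was at 6.88, 7.62 and 5.73 FPKM against 28.5, 16.1 and 15.3 FPKM. In all 3 genes KO 0 was the highest and the other KO libraries were also above every control. Cdkn1a, the p21 cell cycle inhibitor, was high in KO 0 alone, at 58.8, 53.9 and 72.8 FPKM in the controls and 241, 48.0 and 61.5 FPKM in the KO libraries. In the 9-library fit 3 of 26 passed as higher (Phlda3, Aen and Gtse1), against 2.3% of all genes. Sesn1 alone passed as lower, against 1.51% of all genes. The part that tamoxifen or Cre activity has in these values was not tested.

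Heat shock chaperones lay above the controls in 6 of 15 (40.0%, against 14.2% of all genes) and below in none (median 0.37, and 0.18 without KO 1). Hspe1, a mitochondrial chaperonin, was at 89.8, 114 and 108 FPKM in the controls and 148, 160 and 145 FPKM in the KO libraries, and Hsf1, the heat shock transcription factor, was at 16.5, 17.8 and 18.6 FPKM against 22.2, 27.4 and 24.96 FPKM. Both were separate, and Hsf1 was the 1 of 15 that passed with 9 libraries (limma adjusted p = 0.0432), against 2.3% of all genes higher there. Genes of YAP signalling and fetal-like epithelium lay above the controls in 5 of 16 (31.25%, against 14.2% of all genes), with a median of 0.72. Among them was Clu, clusterin, at 3.87, 1.82 and 2.51 FPKM in the controls and 20.6, 4.34 and 14.7 FPKM in the KO libraries. The mean of this list was 1.53 above the controls in KO 0, 0.10 in KO 1 and 0.94 in KO 2.

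Transcripts of other cells differed between single KO libraries. The 18 T cell genes of the table summed to between 225 and 432 FPKM in the controls and to 371, 26.99 and 139 FPKM in KO 0, KO 1 and KO 2. The 26 stromal, muscle and endothelial genes summed to between 10.3 and 18.3 FPKM in the controls and to 42.5, 12.9 and 139 FPKM in the KO libraries. Of the 10 tested, 4 lay above the controls (40.0%, against 14.2% of all genes), and 16 of the 26 were under the minimum of 1 FPKM. That minimum is a mean over both groups, and with controls this low a member could pass it through the KO libraries alone. The 40.0% is therefore not a like comparison with all genes. The highest gene of the list was Dcn, decorin of fibroblasts, at 47.8 FPKM in KO 2. Myeloid genes (17 in the table) summed to 35.5 to 83.4 FPKM in the controls and 29.3 to 139 FPKM in the KO libraries, and the 16 MHC class II and B cell genes to 844 to 2211 FPKM against 897 to 2234 FPKM. No gene of these 4 lists was listed at 0 in all 6 libraries. None of the T cell or MHC class II and B cell genes lay outside the control range, so the groups overlap there. The part of these cells in the results was not tested.

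The nearest other group is the double mutant, which has the same Smad4 deletion with stabilised beta-catenin. Smad4 was at 10.7, 9.78 and 9.53 FPKM in its 3 libraries and Id3 at 12.3, 16.6 and 11.4 FPKM, after scaling that table to the first. The difference double mutant minus Smad4 KO was -0.08 (SE 0.10) for Smad4 and 0.16 (SE 0.19) for Id3 on the log2 scale. No gene of 11841 passed the limma test of this difference, 171 (1.44%) had an unadjusted p below 0.05, and a fit of the 6 mutant libraries alone called 2 higher and 2 lower. The median difference was 0.18 for ribosome biogenesis genes, -0.73 for brush border enzymes and 0.38 for crypt base stem cell markers, against 0 for all genes. The 9-library fit thus showed no gene to differ between the 2 mutant groups, which does not show that the groups are alike.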

How the data were processed

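RNA from jejunal crypts was sequenced, and the authors deposited FPKM values per gene, 1 table per mutant; per the submitters' processing notes they used TopHat2 2.1.1, Cuffnorm 2.2.1 and Cuffdiff 2.2.1 with the mm9 build. The gene annotation and the alignment settings are not given in the sources used here. FPKM were used as deposited. The test covered genes whose 6 libraries averaged 1 FPKM or more, on log2(FPKM + 1), a scale that understates changes of low genes, with limma 3.58.1 (R 4.3.3; empirical Bayes with a mean-variance trend, two-sided, Benjamini-Hochberg over all 11849 genes). On simulated data the test recovered 46.3%, 79.1% and 93.9% of genes changed 2-, 4- and 8-fold at this size, with 5 false calls. The changes were planted only in genes whose mean log2(FPKM + 1) was above the log2 of 6. The noise was drawn independently for each gene and library, without deviations shared across genes. These shares therefore do not give the recovery for low genes or in the real libraries.

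Read depth is unknown. Steps between low values gave relative depths of about 0.949 to 1.42 times control 0. Each rests on the most common ratio, which 1.34% to 1.88% of the low-value genes showed, so these depths are rough. FPKM summed to 568081 to 752340 per library. The double mutant table, normalised separately, was divided by 1.04, the mean ratio of the controls that both tables hold. Of the same-numbered libraries, control 1 and KO 1 deviated together (r = 0.223 across genes), and numbers 0 and 2 did not (r = -0.111 and -0.0987). Control 2 with KO 0 (r = 0.211) and control 0 with KO 2 (r = 0.198) also deviated together. The numbers were therefore not taken to pair the libraries.

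The members and gene lists were chosen with earlier results of these data known. Named genes are Smad4, Id1 to Id3, every called gene, the 12 largest changes in each direction (unadjusted p below 0.01, KO libraries all on one side of the controls, no predicted or small RNA genes), and in each list the first 3 members and the 3 others with the smallest p; further members named were chosen after their values were seen. Some genes are not reported here.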

Additional observations from a re-analysis of the deposited data

How the results depend on the processing

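The count of genes called higher, 1 as reported, was 3 with a pseudocount of 0.1, 0 with a pseudocount of 5, 2 with a minimum of 5 FPKM, 4 with quantile normalization, 0 with sex as a covariate, 272 in the 9-library fit, and 2 to 8 when 1 library was left out. The count of genes called lower, 3 as reported, was 179 in the 9-library fit and 3 to 8 when 1 library was left out. For double mutant against Smad4 KO, 0 calls in each direction became 2 higher and 2 lower with the 6 mutant libraries alone, and 0 to 3 higher and 0 to 2 lower with 1 library left out.

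Smad4 kept its direction throughout, at -2.10 with sex as a covariate (limma adjusted p = 0.0553). Id3 missed the threshold with a pseudocount of 5 (-2.01, limma adjusted p = 0.0603), without a filter (-2.32, 0.0903) and without a trend (-2.32, 0.0661), and ran from -2.43 to -2.18 with 1 library left out. Id1 (-0.83) and Id2 (-1.58) passed in the 9-library fit. The cause of these differences was not tested. With the library number as a replicate block, 0 genes were called higher and 1 lower, and Smad4 (-2.13) and Id3 (-2.32) both had limma adjusted p = 0.234; the labels do not pair these libraries.

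None of the 4 called genes changed sign under any alternative run; of the 330 named genes other than Smad4 and Id1 to Id3, 59 changed sign in their log2 fold change under at least 1, and none of these was called. List medians changed sign under at least 1 alternative in 16 of 56 lists. Without absolute depth, no counting error can be given for low genes.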

Other observations

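Some lists outside the comparisons above held single genes that separated the groups. Among 16 circadian clock genes 3 lay above the controls in each Smad4 KO library and 3 below (18.8% each way, near the 14.2% and 12.2% of all genes). Cry1, a repressor of the clock, was at 5.63, 3.07 and 3.58 FPKM in the controls and 9.11, 8.19 and 7.61 FPKM in the KO libraries (limma adjusted p = 0.0406 with 9 libraries). Nr1d1, the nuclear receptor REV-ERB alpha, was at 27.1, 29.2 and 57.1 FPKM against 21.2, 14.4 and 13.9 FPKM. Neither was called with 6 libraries. The labels used here give no hour of collection.

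Of 13 Reg family and related mucosal defence genes 11 were negative and 3 lay below the controls (23.1%, against 12.2% of all genes). The median was -0.53 and ran from -0.95 to -0.09 with 1 library left out. Pigr, which carries immunoglobulin A across the epithelium, was at 966, 1417 and 1316 FPKM in the controls and 613, 673 and 519 FPKM in the KO libraries. Reg1, a secreted lectin-like protein, was at 41.3, 126 and 151 FPKM against 38.9, 17.2 and 13.1 FPKM. Lcn2, the iron-siderophore binder lipocalin, lay above the controls, at 1.42, 1.02 and 1.15 FPKM against 3.49, 1.85 and 4.02 FPKM. None of these 3 was called.

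Fgf15, the hormone by which the ileum reports bile acids to the liver, was at 0.0988, 0.0460 and 0.347 FPKM in the controls and 5.49, 0.606 and 0.871 FPKM in the KO libraries, with KO 0 far above the others. The control mean of Fgf15, 0.164 FPKM, was under the minimum of 1 FPKM, so it was tested only through the KO libraries. Slc51a and Slc51b, the subunits of the basolateral bile acid exporter, lay below the controls, with Slc51b at 47.4, 53.4 and 84.6 FPKM in the controls and 37.6, 14.4 and 15.7 FPKM in the KO libraries. Of 32 interferon-stimulated genes none lay outside the control range.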
